A study of Ovis aries with 3 samples.

Results

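Trefoil factor 2 (TFF2) and serine peptidase inhibitor Kazal type 4 (SPINK4) were followed exon by exon along the sheep intestine. TFF2 was taken as transcript XM_004003362.2 and SPINK4 as transcript XM_004004147.2. Each has 4 exons, so the pair accounts for 8 of the 903107 exon entries and 2 of the 83089 transcripts with reads in at least 1 region. The symbols come from a RefSeq gene table, matched by accession. Both genes were among those that the study measured by quantitative PCR, SPINK4 under a later version of its transcript. They were measured in part for their high and differing expression, so the levels below are a description and carry no test of the regions. The PCR also placed both genes highest in the colon, with smaller ratios to the duodenum than those below. In the PCR the mean of TFF2 was nearly equal in duodenum and cecum. For SPINK4 the PCR placed the cecum between duodenum and colon, with a smaller cecum to duodenum ratio than below.

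Total RNA was extracted from the intestinal mucosal epithelium of 3 healthy small-tailed Han ewes aged 11 months, without any treatment. Tissue came from the middle of the duodenum, of the cecum and of the proximal colon, and the RNA of each region was sequenced as 1 pooled library with reads of 100 bp. The 3 libraries are the groups compared, and no value has a replicate. The 95% intervals below cover the sampling of reads only and are narrow at this depth. They are too narrow even for that, because a read can be counted on more than 1 exon. Reads summed over distinct exons came to 1.35, 1.39 and 1.39 times the read total in duodenum, cecum and colon. How reads across junctions were counted is not stated in the sources used here. In pooled tissue, fewer cells of a type and less RNA per cell cannot be told apart.

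Trefoil factors are small secreted peptides, held together by disulfide bonds, that are stored with mucins in mucous cells and released into the mucus layer, where they promote repair of the epithelial surface. In other mammals TFF1 belongs to the surface mucous cells of the stomach, TFF2 to deep gastric glands and the Brunner glands of the duodenum, and TFF3 to the goblet cells of the intestine. SPINK4 carries a Kazal domain, the fold of a large family of serine protease inhibitors, and is known as a product of intestinal goblet cells.

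TFF2 was abundant in the duodenum and cecum and was the most abundant locus of the colon. Its level was 1470 RPKM in the duodenum, 2060 RPKM in the cecum and 127220 RPKM in the colon. RPKM divides the reads on a transcript by the length of its exons and by the read total by which the authors scaled the library. The colon stood far above both other regions, which lay close together. The colon to duodenum ratio was 86.5-fold (log2 ratio 6.43, interval 6.42 to 6.45). The colon to cecum ratio was 61.8-fold (log2 ratio 5.95, interval 5.94 to 5.96). Between cecum and duodenum TFF2 differed by 1.40-fold (log2 ratio 0.49, interval 0.47 to 0.50), below the fold of 2 used as the threshold by the study. When the libraries were scaled to keratin 8 (KRT8), an epithelial gene at 763 RPKM in the duodenum, 1495 RPKM in the cecum and 1104 RPKM in the colon, this small difference turned, with a log2 ratio of -0.48.

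SPINK4 rose at each step from duodenum to colon. It was measured at 844 RPKM in the duodenum, 4905 RPKM in the cecum and 21237 RPKM in the colon. The cecum, which for TFF2 lay close to the duodenum, lay between the other regions for SPINK4. The cecum to duodenum ratio was 5.82-fold (log2 ratio 2.54, interval 2.52 to 2.56). The colon to cecum ratio was 4.33-fold (log2 ratio 2.11, interval 2.10 to 2.12). Over the whole distance the colon exceeded the duodenum 25.2-fold (log2 ratio 4.65, interval 4.63 to 4.68). Scaled to KRT8, the step from duodenum to cecum was smaller, with a log2 ratio of 1.57, and the step from cecum to colon larger, with a log2 ratio of 2.55.

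For each pair of libraries, a locus was counted as different when its RPKM differed at least 2-fold and the Audic-Claverie test on its reads, the test of the study, gave a false discovery rate below 0.001. This test compares 2 libraries and not 2 regions. The study kept transcripts that passed in its own sheep and also in published Texel sheep data, which were not used here. A locus is a set of transcripts that share exons, and 16373 loci with at least 1 RPKM in a region were tested. Of all loci, 16.5% differed between colon and duodenum, and 9.17% were on the side of the colon. Between cecum and duodenum 17.8% differed, with 11.2% on the side of the cecum. Between colon and cecum 5.94% differed, with 3.03% on the side of the colon. SPINK4 was among the loci of the more distal region in all 3 comparisons, and TFF2 in the comparisons of the colon with each other region.

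Of the tested loci, 95 had a larger colon to duodenum ratio than TFF2, and 54 of these had no reads in the duodenum. Their median level in the colon was 7.37 RPKM, and 11 of them reached 100 RPKM there. The most abundant of them in the colon was intelectin (ITLN, NM_001202852.1), a lectin of mucous cells, chosen here after its values were seen. ITLN had 1.69 RPKM in the duodenum, 23.1 RPKM in the cecum and 3968 RPKM in the colon. For SPINK4, 154 loci had a larger colon to duodenum ratio, TFF2 among them, and 55 of the 154 had no reads in the duodenum. The median colon level of the 154 loci was 7.43 RPKM.

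**Figure D1:**
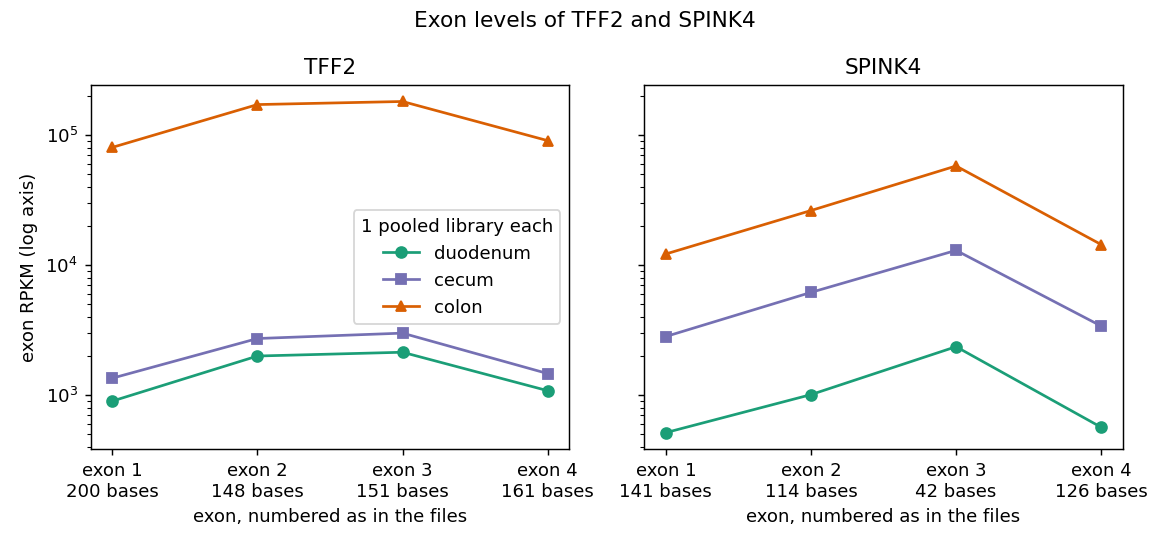
RPKM of each exon of TFF2 (left) and SPINK4 (right) on a log axis, with 1 line for each pooled library and exon lengths under the axis. In TFF2 the colon line lies at 80839 RPKM or above, while the duodenum and cecum lines reach at most 2994 RPKM. In SPINK4 the 3 lines are spaced apart at every exon.

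The 4 exons of TFF2 lie between positions 260684876 and 260688449 of the files, which name neither chromosome nor genome build. Exons are numbered by position in the files, so exon 1 need not be the first exon to be transcribed. Exon 1, of 200 bases, held 9116 duodenum reads, 12472 cecum reads and 870267 colon reads. Exon 2, of 148 bases, held 15010, 18655 and 1376420 reads. Both exons had ample reads in the lowest region, and the excess in the colon was plain in each. Exon 3, of 151 bases, was the most read, with 16375, 20940 and 1483088 reads. Exon 4, of 161 bases, held 8829, 10899 and 789839 reads.

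Per length, the inner exons of TFF2 exceeded the outer exons in every region. In the colon the exon levels were 80839, 172778, 182469 and 91140 RPKM from exon 1 to exon 4. In the cecum they were 1347, 2722, 2994 and 1462 RPKM. In the duodenum they were 897, 1995, 2133 and 1079 RPKM. The highest exon exceeded the lowest 2.38-fold in the duodenum, 2.22-fold in the cecum and 2.26-fold in the colon. The profile along the exons therefore kept its shape while the level changed, and the colon excess was carried by every exon. The part of exon length and of read counting in this profile was not tested. The colon to duodenum ratio ranged from 84.5-fold in exon 4 to 90.2-fold in exon 1, and the colon to cecum ratio from 60.0-fold in exon 1 to 63.5-fold in exon 2. The cecum to duodenum ratio ranged from 1.35-fold in exon 4 to 1.50-fold in exon 1. The intervals of these last 2 exons did not overlap (log2 ratio 0.40 to 0.48 for exon 4 and 0.55 to 0.63 for exon 1), although these intervals are too narrow and the exons were picked as the lowest and the highest.

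The exons of SPINK4 lie between positions 37683950 and 37691462. Exon 1, of 141 bases, held 3673 duodenum reads, 18415 cecum reads and 92574 colon reads. Exon 2, of 114 bases, held the most reads in each region, with 5828, 32564 and 161746. Both exons followed the order of the transcript as a whole. Exon 3, of only 42 bases, held 5026, 25297 and 131424 reads. Exon 4, of 126 bases, held 3610, 19815 and 97798 reads. Exon 3 is shorter than a read and had the highest exon level in each region.

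Exon 3 of SPINK4 reached 2354 RPKM in the duodenum, 13005 RPKM in the cecum and 58133 RPKM in the colon. This was 4.59, 4.61 and 4.77 times the level of exon 1, the lowest exon, at 513, 2820 and 12197 RPKM. This spread rests on exon 3. Exon 2, the next highest, had 1006, 6168 and 26359 RPKM, and without exon 3 the exons of SPINK4 spanned a smaller fold than those of TFF2 in every region. How reads spanning several exons were counted is not given in the sources used here. Ratios between regions were less variable. The colon to duodenum ratio ranged over the exons from 23.8-fold to 26.2-fold, the cecum to duodenum ratio from 5.50-fold to 6.13-fold and the colon to cecum ratio from 4.25-fold to 4.47-fold. Without the short exon, the log2 ratios of the transcript were 4.66 for colon over duodenum, 2.57 for cecum over duodenum and 2.10 for colon over cecum.

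**Figure D2:**
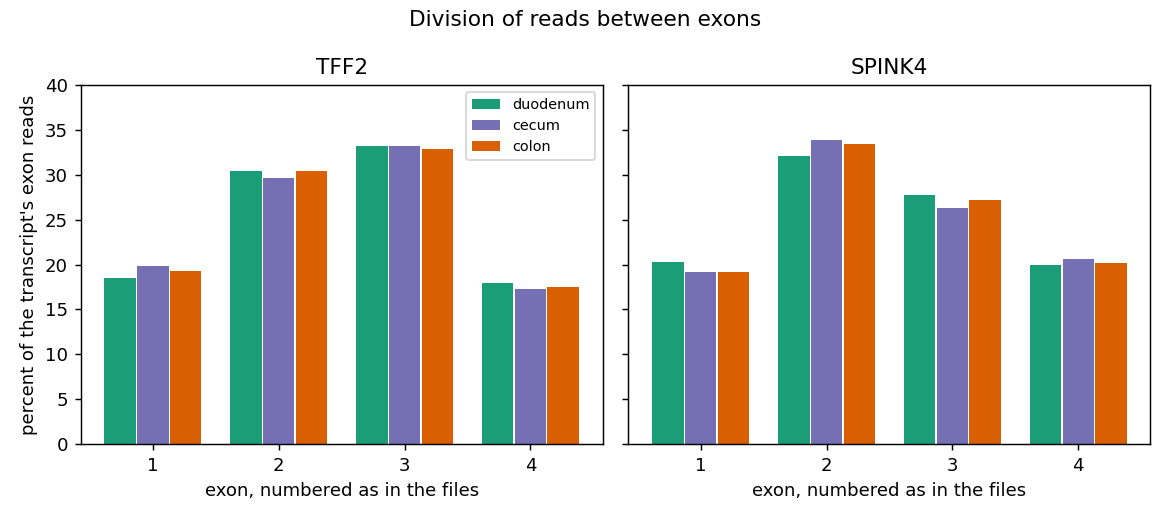
Share of the exon reads of TFF2 (left) and SPINK4 (right) that lay on each exon, in percent, with 1 bar for each pooled library and the axis starting at 0. The 3 bars of an exon differ by at most 1.76 percentage points.

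The division of reads between exons was nearly the same in the 3 regions. In TFF2, exon 3 held between 32.8% and 33.3% of the exon reads of the transcript, and exon 1 between 18.5% and 19.8%. In SPINK4, exon 2 held between 32.1% and 33.9%, and exon 3 between 26.3% and 27.7%. The largest shift of any exon between regions was 1.76 percentage points, in exon 2 of SPINK4. Reads covered the exons almost completely, since 21 of the 24 exon values of coverage were 100% and the lowest, exon 4 of SPINK4 in the cecum, was 97.62%. No exon of another transcript in the files overlaps the positions of a TFF2 exon. For SPINK4, 6 other exons share positions, on the same or on another chromosome, and the most read of them held 512, 580 and 687 reads in duodenum, cecum and colon. Each exon of SPINK4 held more reads than this in every region.

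The share of the colon library taken up by TFF2 can be bounded from its exons. Its most read exon alone held 2.76% of the read total in the colon (95% Wilson interval 2.751% to 2.76%), against 0.0322% in the duodenum (0.0317% to 0.0327%) and 0.0452% in the cecum (0.0446% to 0.0458%). If no read was counted on more than 1 exon of TFF2, the 4 exons together held 8.40% in the colon, 0.0970% in the duodenum and 0.136% in the cecum. These are the lower and upper limits of the share of reads from TFF2 as the files count them. For SPINK4 the limits were 0.300% and 0.898% in the colon, 0.0703% and 0.207% in the cecum, and 0.0115% and 0.0357% in the duodenum. All of these shares lie far above 5.57e-06% to 6.48e-06%, the share that 3 reads would make up.

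Per length, TFF2 made up 19.7% of the RPKM summed over all loci in the colon, against 0.272% in the duodenum and 0.372% in the cecum. SPINK4 made up 3.29% in the colon, 0.885% in the cecum and 0.156% in the duodenum. By RPKM, TFF2 ranked first among 26379 loci with reads in the colon, 25 in the cecum and 41 in the duodenum. SPINK4 ranked 2 in the colon, 4 in the cecum and 83 in the duodenum. TFF2 and SPINK4 were thus the most abundant loci of the colon per length, and the level of TFF2 there was 5.99 times that of SPINK4. These shares and ranks compare genes of unlike exon lengths. They were not corrected for reads counted on more than 1 exon. In the cecum the loci ahead of SPINK4 included B2M, the light chain of MHC class I, at 5299 RPKM, and its nearest follower was SPINK1, another Kazal inhibitor, at 4820 RPKM.

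A ratio of 2 genes within 1 library does not depend on how libraries are scaled. It does depend on how reads were counted on exons. Reads summed over exons exceeded the read total in each library, which can raise the RPKM of TFF2 and SPINK4 unequally. The intervals do not cover this. The study also lists transcript levels (FPKM) beside its PCR, with SPINK4 under the later version. Both genes were lower there than here in every region, SPINK4 by the larger factor. The ratio of TFF2 to SPINK4 was thus higher in the study's values in each region. TFF2 stood at 1.74 times the RPKM of SPINK4 in the duodenum (interval 1.71 to 1.77), at 0.420 times in the cecum (0.416 to 0.424) and at 5.99 times in the colon (5.97 to 6.01). SPINK4 was thus the more abundant of the pair in the cecum, and TFF2 in the colon. In the duodenum the order depended on the exons used, since the highest exons gave a ratio of 0.906 there, the highest exon of SPINK4 being the one of 42 bases. The same choice gave 0.230 in the cecum and 3.14 in the colon, where the order held. The median exon gave 1.96 in the duodenum, and the study's FPKM also placed TFF2 above SPINK4 there.

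Of 9 epithelial markers 4 were found, and they differed in how level they were. EPCAM, an epithelial adhesion protein, varied least, at 582 RPKM in the duodenum, 550 RPKM in the cecum and 596 RPKM in the colon. Relative to EPCAM, TFF2 stood at 2.53, 3.74 and 213 times in duodenum, cecum and colon. SPINK4 stood at 1.45, 8.91 and 35.6 times. The order of the regions was the same for both genes as with the read total, whereas scaling to KRT8, as given above, turned the cecum and duodenum for TFF2. Keratin 20 (KRT20), of mature surface cells, had 377, 402 and 230 RPKM and passed the threshold in no comparison. CDX1, a transcription factor of intestinal identity, had 6.46, 30.9 and 30.0 RPKM and was higher in both cecum and colon than in the duodenum.

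**Figure D3:**
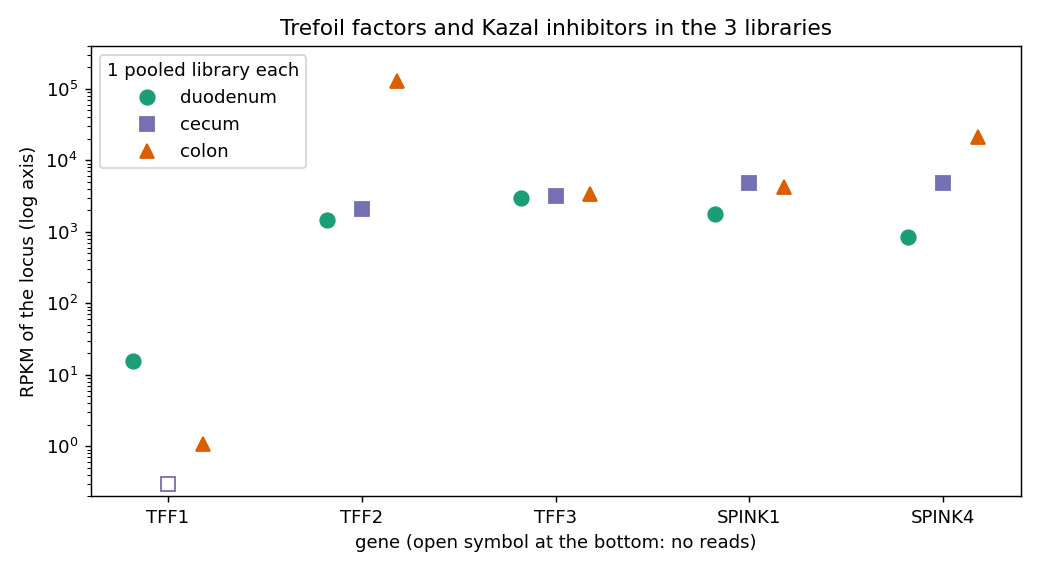
RPKM of 3 trefoil factors and 2 Kazal inhibitors on a log axis, with 1 symbol for each pooled library. TFF3 lies between 2981 and 3343 RPKM in every library, TFF2 and SPINK4 are highest in the colon, and the open square marks TFF1 in the cecum, where it had no reads.

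The 3 trefoil factors are neighbouring genes, and their levels followed different orders along the intestine. TFF3, the goblet cell peptide, was level, at 2981 RPKM in the duodenum, 3188 RPKM in the cecum and 3343 RPKM in the colon. Its colon to duodenum ratio was 1.12-fold, and it passed the threshold in no comparison. TFF3 was the leading trefoil factor of the duodenum and cecum by RPKM of the locus, where TFF2 stood at 0.493 and 0.646 times its RPKM. The TFF3 locus joined 2 transcripts with 6 exons, against 1 transcript with 4 exons for TFF2. The 2 levels are thus not summed alike. In the colon TFF2 stood at 38.1 times the RPKM of TFF3.

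TFF1, the peptide of gastric surface cells, was scarce and was highest in the duodenum. It had 15.8 RPKM in the duodenum (400 reads), no reads in the cecum and 1.09 RPKM in the colon (29 reads). Its level in the duodenum was at least 122-fold higher than in the cecum, where 3 reads would give 0.130 RPKM. The other gastric genes that were found were near 0 in both cecum and colon. Gastrokine 1 (GKN1), a secreted protein of the gastric surface, had 1.97 RPKM in the duodenum, 0.0773 RPKM in the cecum and 0.0665 RPKM in the colon. Pepsinogen C (PGC), an enzyme precursor of gastric and Brunner glands, had 0.277, 0.0913 and 0.0272 RPKM. The gastric and duodenal mucous markers that were found, 3 of 7, summed to 18.1 RPKM in the duodenum, 0.169 RPKM in the cecum and 1.19 RPKM in the colon. Their part in the levels of TFF2 was not tested.

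Of the 8 Kazal inhibitors looked up, 4 were found in the files. SPINK1, which inhibits trypsin, had 1790 RPKM in the duodenum, 4820 RPKM in the cecum and 4180 RPKM in the colon. SPINK1 thus shared the lower level in the duodenum with SPINK4 but was not higher in the colon than in the cecum. Its cecum to duodenum ratio was 2.69-fold and its colon to duodenum ratio 2.34-fold, and both passed the threshold. SPINK4 stood at 0.471 times the RPKM of SPINK1 in the duodenum, 1.02 times in the cecum and 5.08 times in the colon. SPINK7 and SPINK9 had no reads in duodenum or cecum and at most 0.145 RPKM in the colon.

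**Figure D4:**
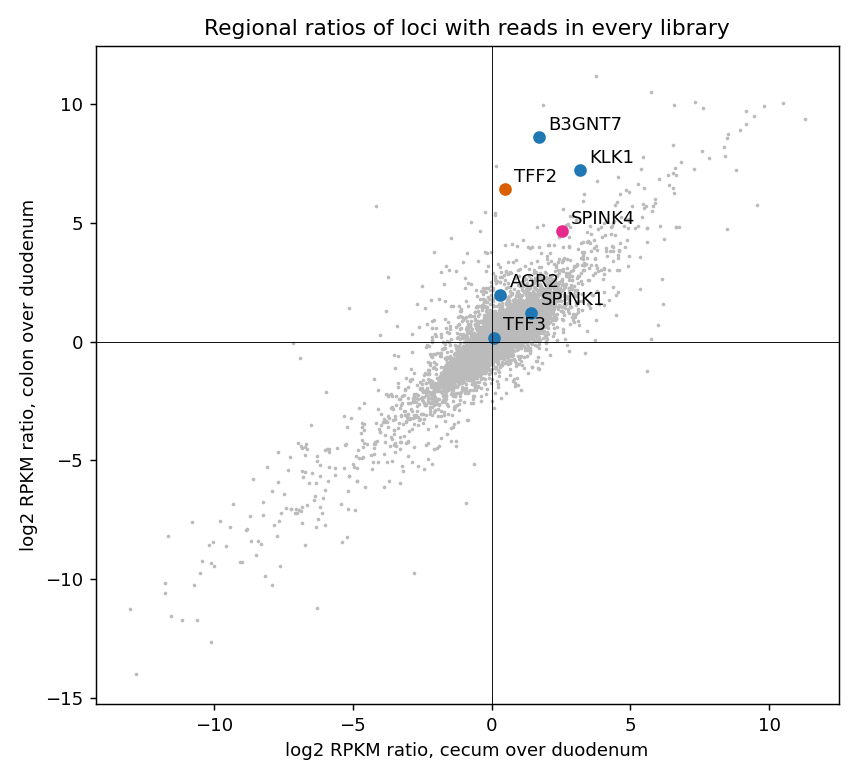
Log2 RPKM ratios of 16206 tested loci with reads in every library, cecum over duodenum on the horizontal axis and colon over duodenum on the vertical axis, with 1 point for each locus. Both axes share the duodenum library, so points tend to lie along the diagonal. TFF2 lies above the diagonal cloud at 0.49 and 6.43, and SPINK4 lies nearer to it at 2.54 and 4.65.

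The loci with the most similar pattern were found by the distance between their log2 ratios of cecum over duodenum and colon over duodenum, among loci with at least 10 RPKM in a region. This measure rests on 3 libraries. Within 1 log2 unit of TFF2 there was no other locus. The nearest was the unnamed noncoding transcript XR_001032402.1, at a distance of 1.02, with 0.128 RPKM in the duodenum, 0.145 RPKM in the cecum and 21.7 RPKM in the colon. The only named locus among the 5 nearest was ACHE, acetylcholinesterase, at a distance of 2.46, with 0.893, 1.68 and 14.4 RPKM. These loci resemble TFF2 in their order and not in their abundance.

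SPINK4 had 9 loci within 1 log2 unit. Among the 5 nearest was FAM3D, a secreted protein of the gut, at a distance of 0.27, with 1.57 RPKM in the duodenum, 8.48 RPKM in the cecum and 33.4 RPKM in the colon. PCK1, an enzyme of gluconeogenesis, lay at 0.64, with 13.8, 66.2 and 231 RPKM. The fifth, the unnamed XM_012153721.1 at 0.68, was the only abundant one, with 327, 2303 and 12679 RPKM, and it ranked 3 in the colon after TFF2 and SPINK4.

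To place the pair among other products of mucous cells, 79 genes of mucus, its glycosylation and its secretory program were looked up by symbol. The list was chosen with earlier results of these data known, so the counts below describe it and test nothing. Only 21 could be matched to a transcript of the files, none of the 5 gel-forming mucins among them, and 20 passed the limit of 1 RPKM. In the comparison of colon and duodenum 13 of the 20 were higher in the colon by the threshold and none lower, where 9.17% and 7.31% of all loci were. Their median log2 ratio was 1.97, against -0.02 over all tested loci. In the comparison of cecum and duodenum 8 were higher in the cecum by the threshold and 1 lower, where 11.2% and 6.65% of all loci were, and the median log2 ratio was 0.61 against 0.05. In the comparison of colon and cecum 9 were higher in the colon by the threshold and none lower, where 3.03% and 2.91% of all loci were, and the median log2 ratio was 0.63 against -0.09.

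**Figure D5:**
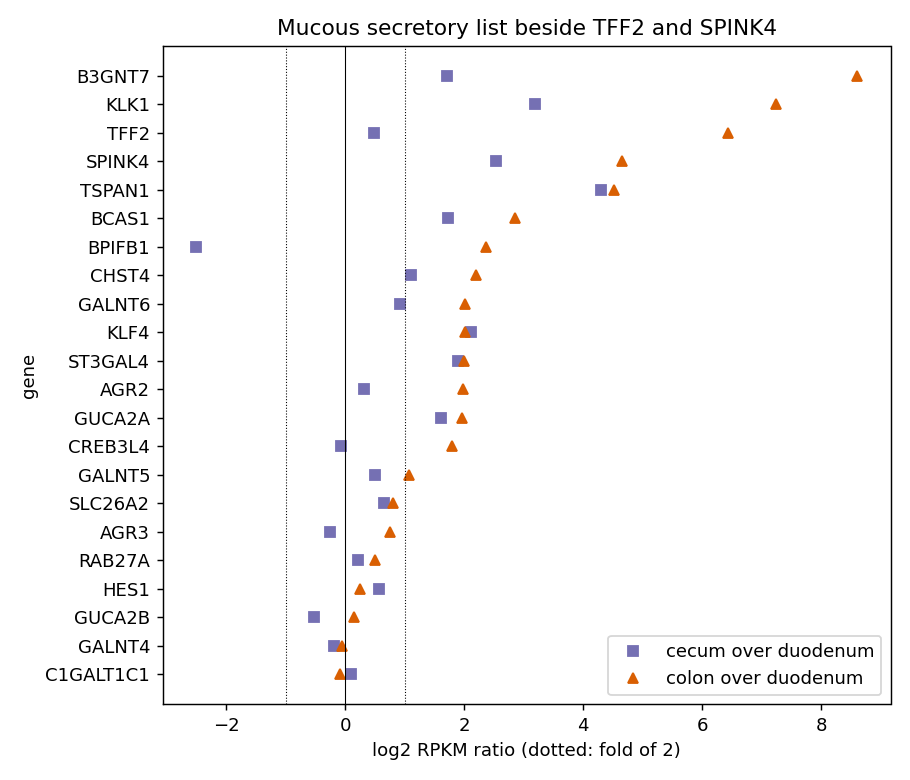
Log2 RPKM ratios of the 20 tested mucous genes with TFF2 and SPINK4, cecum over duodenum (squares) and colon over duodenum (triangles), in order of the colon ratio. B3GNT7 and KLK1 lie above TFF2 in the colon ratio, and TSPAN1 lies near SPINK4 in the colon ratio and above it in the cecum ratio.

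Of 22 proteins of secretory granules and mucus 9 were found. Of these, 6 were higher in the colon than in the duodenum by the threshold, where 9.17% of all loci were. Kallikrein 1 (KLK1), a secreted serine protease, had 2.14 RPKM in the duodenum, 19.4 RPKM in the cecum and 323 RPKM in the colon. AGR2, a disulfide isomerase that goblet cells need to fold mucin, had 991, 1237 and 3909 RPKM. AGR2 was the most abundant of the 20 genes in each region, and like TFF2 it passed the threshold against both other regions in the colon but not between cecum and duodenum. TSPAN1, a membrane tetraspanin, had 51.9, 1021 and 1194 RPKM, and guanylin (GUCA2A), a peptide that drives fluid secretion, 346, 1058 and 1351 RPKM. These 2 genes separated the duodenum from both regions of the large intestine, which for TFF2 was not the case. BPIFB1, a secreted antimicrobial protein, was the single mucous gene to pass the threshold as lower in the cecum than in the duodenum, with 2.52, 0.444 and 13.0 RPKM.

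Among enzymes and transporters for mucin glycans, 8 of 29 were found. Of these, 5 were higher in the colon than in the duodenum by the threshold, where 9.17% of all loci were. B3GNT7, which extends sulfated glycan chains, had 0.174 RPKM in the duodenum, 0.570 RPKM in the cecum and 67.7 RPKM in the colon. CHST4, a sulfotransferase for such glycans, had 14.6, 31.3 and 66.8 RPKM, and GALNT6, which starts mucin O-glycans, 8.32, 15.9 and 33.5 RPKM. All 3 were highest in the colon, as TFF2 and SPINK4 were. GALNT4, another starter enzyme, and C1GALT1C1, the chaperone of the core 1 enzyme, passed the threshold in no comparison, with colon to duodenum ratios of 0.966-fold and 0.946-fold.

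Of 14 factors of the secretory program 3 were found, all of them transcription factors. Of these, 2 were higher in the colon than in the duodenum by the threshold, where 9.17% of all loci were. CREB3L4, a factor activated in the secretory pathway, had 4.85 RPKM in the duodenum, 4.64 RPKM in the cecum and 16.7 RPKM in the colon. KLF4, a factor of goblet cell differentiation, had 21.1, 90.7 and 84.7 RPKM and did not separate cecum from colon. HES1, which restrains the secretory fate, passed the threshold in no comparison.

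The labelled regions were checked against other cell types, and these also differed between libraries. FABP2, a fatty acid binding protein of the small intestine, had 1102 RPKM in the duodenum and at most 0.369 RPKM in the cecum and colon. Of 10 markers of absorptive cells 5 were found, and these were lower in both cecum and colon than in the duodenum by the threshold. Of all loci, 6.65% were lower in the cecum and 7.31% lower in the colon than in the duodenum. Genes of stroma and muscle summed to 566 RPKM in the duodenum, 2522 RPKM in the cecum and 1544 RPKM in the colon, over 5 of 7 found. All 5 were higher in the cecum than in the duodenum by the threshold, where 11.2% of all loci were. Immune markers summed to 6782, 3778 and 771 RPKM over 4 of 5 found, most of it from JCHAIN, the joining chain of secreted antibodies, at 6626, 3659 and 663 RPKM. JCHAIN was the single immune marker to pass the threshold, lower in the colon than in each other region. The T cell gene CD3E had 111, 68.4 and 56.9 RPKM, the B cell gene CD79A 24.9, 16.6 and 27.5 RPKM and the macrophage gene CD68 19.4, 33.8 and 23.7 RPKM. The part of these differences in the levels of TFF2 and SPINK4 was not tested.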

How the data were processed

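The 3 libraries were grouped by the tissue in the sample labels. The authors deposited, per exon of each transcript, an estimated count of reads (expected count, mostly not a whole number), the RPKM made from it and the percent coverage of the exon. Exons with less than 1 read are absent from a file. The totals behind the RPKM were 50832279 duodenum reads, 46311533 cecum reads and 53827214 colon reads. The methods state Bowtie2 and RSEM with sheep genome v4.0, and the submitters' processing notes list BWA and Bowtie 0.12.2. The files name no build.

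Estimated counts were summed over distinct exons and rounded for tests. Transcripts sharing an exon of equal position and reads were joined into 28601 loci. Calls used a fold of 2 in RPKM and a false discovery rate below 0.001 (Audic-Claverie test, both sides, Benjamini-Hochberg adjustment), with 0 RPKM replaced by 0.001. The calculation was tested on simulated data. Intervals of ratios are 95% Clopper-Pearson intervals. Floors use 3 reads.

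Symbols were taken for 8804 of 83089 transcripts by accession without version, 8735 from a RefSeq gene table (assembly ARS-UI_Ramb_v3.0) and 69 from the study's supplement. For a gene with several loci the one with the most reads was used. Genes named were TFF2 and SPINK4, the matched members of the gene lists, the 5 loci of most similar pattern and the 5 loci with the highest RPKM per region, of which a selection is given, and ITLN. Members and lists were chosen with earlier results of these data known. Alternatives changed the scaling, the pseudocount, the limit on low RPKM and the exons used. Tests ran in Python 3.11.15 with scipy 1.17.1, pandas 2.3.3 and numpy 2.4.6, and plots were drawn with matplotlib 3.10.9.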

Additional observations from a re-analysis of the deposited data

How the results depend on the processing

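No paired analysis was possible because each region has 1 library. Log2 ratios are given in the order cecum over duodenum, colon over duodenum and colon over cecum. For TFF2 they were 0.44, 6.48 and 6.03 with median-ratio rescaling, 0.42, 6.47 and 6.04 when the 10 most read loci of each region were left out of the scaling, and 0.44, 6.47 and 6.03 with upper-quartile rescaling. For SPINK4 these scalings gave 2.50, 4.69 and 2.20, then 2.48, 4.69 and 2.21, and then 2.49, 4.68 and 2.19. Scaling to EPCAM and to KRT8 was added after seeing the data. With EPCAM the ratios of TFF2 were 0.57, 6.40 and 5.83 and those of SPINK4 2.62, 4.62 and 1.999. With KRT8 they were -0.48, 5.90 and 6.39 for TFF2 and 1.57, 4.12 and 2.55 for SPINK4. The first value of TFF2 was the only ratio that turned. With the median exon TFF2 gave 0.44 for cecum over duodenum and 5.98 for colon over cecum, and SPINK4 gave 2.61, 4.70 and 2.09. With the highest exon TFF2 gave 6.42 for colon over duodenum and 5.93 for colon over cecum, and SPINK4 gave 2.47, 4.63 and 2.16. With exons of at least 100 bases SPINK4 gave 2.57 for cecum over duodenum and 2.10 for colon over cecum. The ratio of TFF2 to SPINK4 in duodenum, cecum and colon was 1.96, 0.437 and 6.47 with the median exon and 0.906, 0.230 and 3.14 with the highest exon, so that the order in the duodenum turned. The number of loci past the threshold depended mostly on the filter. With at least 10 RPKM in a region, fewer loci being tested, 689 of the 1831 loci higher in the cecum than in the duodenum were counted and 453 in the other direction. The same filter left 565 loci on the colon side and 525 on the duodenum side of that pair, and 167 on the colon side and 160 on the cecum side of colon and cecum. Without a filter, 1675 loci were higher in the duodenum than in the cecum, 2434 in the colon than in the duodenum, 1037 in the colon than in the cecum and 861 in the cecum than in the colon. With 1 added to every RPKM, 1121 exceeded the duodenum in the cecum and 932 did so in the colon, 279 were higher in the colon than in the cecum and 210 in the cecum than in the colon. The counts of mucous genes stayed within 1.5 times in all 24 alternatives. Depth does not limit the values of TFF2 and SPINK4, but no replicate among these libraries shows how far they vary between animals. The Texel sheep data that the study took as its other replicate were not used here.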
